A study of Mus musculus with 6 samples.

Results

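The cyclins that drive G1, their inhibitors, the pocket proteins and the kinase Lats2 were followed across knockdown of Jmjd1c in mouse embryonic stem cells. Jmjd1c is a protein of the JmjC family of histone demethylases. The 10 genes are Ccnd1, Ccnd2, Ccnd3, Ccne1, Ccne2, Cdkn1a, Cdkn1b, Rb1, Rbl2 and Lats2. Every probe set that the platform annotation gives to 1 of them alone was taken, which made 30 of the 45037 probe sets other than controls, and 10 of 18193 named genes. A further probe set that lists a member beside another symbol was left out.

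The cells were the J1 line, kept on gelatin in medium that held 15% serum and 1000 U/ml of the self-renewal cytokine LIF. The sh4 group (shJmjd1c#4-pLKO.1) and the sh3 group (shJmjd1c#3-pLKO.1) are labelled Jmjd1c knockdown, and the shNT group (shNT-pLKO.1) is labelled wild type and carries the control vector. All 3 groups shared infection with the pLKO.1 lentivirus, puromycin at 1.5 ug/ml for 2 days beginning 1 day afterwards, and 4 further days of culture after replating. Each group had 2 arrays from samples called biological replicates in the labels, and the tests measure the spread between those samples. The cells are populations of drug-resistant cells and not clones.

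In G1, D-type cyclins bind Cdk4 and Cdk6 and E-type cyclins bind Cdk2, and these kinases phosphorylate the retinoblastoma family of pocket proteins, which releases E2F transcription factors to switch on genes for DNA synthesis. Cdkn1a (p21) and Cdkn1b (p27) inhibit cyclin-dependent kinases, and Lats2 is a kinase of the Hippo pathway that restrains the coactivators Yap and Taz. Mouse embryonic stem cells are known for a short G1, and their miR-290 family of microRNAs, together with the related miR-302 family, is known to repress Cdkn1a, Rbl2 and Lats2.

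The mature microRNAs that link Cdkn1a, Rbl2 and Lats2 are shown because they share a seed, the stretch of bases 2 to 8 that pairs with targets. Sequences and positions are from RefSeq on GRCm38.p6, with the seed in capitals. The first 3 belong to the miR-290 cluster at chr7:3218968-3218989, chr7:3220691-3220712 and chr7:3220815-3220837, and the last 2 to the miR-302 cluster at chr3:127545275-127545297 and chr3:127545665-127545687, all on the plus strand.
mmu-miR-291a-3p: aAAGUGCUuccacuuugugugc
mmu-miR-294-3p: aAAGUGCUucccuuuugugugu
mmu-miR-295-3p: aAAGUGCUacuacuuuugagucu
mmu-miR-302b-3p: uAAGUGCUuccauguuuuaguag
mmu-miR-302d-3p: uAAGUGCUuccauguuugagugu
These were the 5 of 1679 mature sequences in the RefSeq table whose bases 2 to 8 read AAGUGCU. Levels of the mature microRNAs were not analysed here, so the target genes are described by their mRNA signal alone.

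The median signal lay between 69.2 and 81.0 on the 6 arrays, and log2 signals of the arrays of a group correlated at 0.967 to 0.976 over all probe sets. The 3' to 5' ratio of the Actb control probe sets was 2.26 to 2.40 in sh3 and 2.70 to 2.81 in the other arrays, and its part in the values below was not tested. Jmjd1c itself was read by 3 probe sets. Its brightest, 1426900_at, had signals of 3274 and 4215 in sh4, 4541 and 4984 in sh3, and 6060.3 and 5516 in shNT, a log2 difference of -0.46 ± 0.13 (SE) for the mean of both hairpins (limma adjusted p = 0.358). On this probe set all 4 knockdown arrays were below both controls. The other 2 probe sets were higher in all 4 knockdown arrays than in both controls. Their log2 differences were 0.90 for 1448049_at (limma adjusted p = 0.117) and 0.73 for 1439998_at (limma adjusted p = 0.439). With the replicate number as a block, 1448049_at passed upward (adjusted p = 0.0127) and the brightest did not (0.0745). None of the 3 passed downward, so the knockdown was not shown by these probe sets and the groups are named by the hairpin on their labels. Of 10 embryonic stem cell markers all were above the filter, with Pou5f1 at 10932 and 9797 in sh4, 9964 and 9281 in sh3, and 9069 and 11587 in shNT.

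Of the 10 genes, Ccnd2 and Lats2 stood out. Lats2 rose in the mean of both hairpins against shNT, and Ccnd2 rose with sh4. Neither call held in every setting, and that of Lats2 rested on 1 probe set that may cross-hybridize. In the fit over all probe sets, 0 of the 30 member probe sets passed without the block. The other 8 genes passed no test. The signals are deposited intensities, and each difference is on the scale of log2(signal + 16), with each gene read by its brightest probe set. All 10 genes had a mean signal above the filter of 40.12. For the mean of both hairpins, 1 of the 10 had a limma adjusted p under 0.05, against 0.725% of the 12684 genes tested, and 3 had an unadjusted limma p under 0.05, against 12.3%. With the replicate number as a block it was 2 of 10, Ccnd2 and Lats2, against 5.6%. With sh4, 1 of 10 passed, against 0.363% of genes, and 2 with the block, against 4.9%, while 3 had an unadjusted limma p under 0.05 (12.1% of genes). With sh3, 0 of 10 passed, against 0.071% of genes; 4 had an unadjusted limma p under 0.05 (9.74% of genes), and 1 passed with the block, against 3.43%. Between sh4 and sh3, 0 of 10 and 0% of genes passed, with 2 members at an unadjusted limma p under 0.05 (6.1% of genes) and 1, Ccnd2, passing with the block (0.418%).

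Of the 10 genes 6 were higher and 4 lower in the mean of both hairpins, with a median log2 difference of 0.06, against 0.01 over all genes tested. The 4 knockdown arrays lay wholly above or below both control arrays for 3 of the 10 genes, Ccnd2, Lats2 and Rbl2, and 20.7% of all genes did so. With sh4 alone 4 genes did not overlap shNT, against 38.8% of all genes, and with sh3 alone 6 did not, against 40.2%. Between the hairpins 6 of 10 did not overlap, against 38.5%. In RNA from whole cultures, fewer cells of a type and less RNA per cell cannot be told apart.

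**Figure D1:**
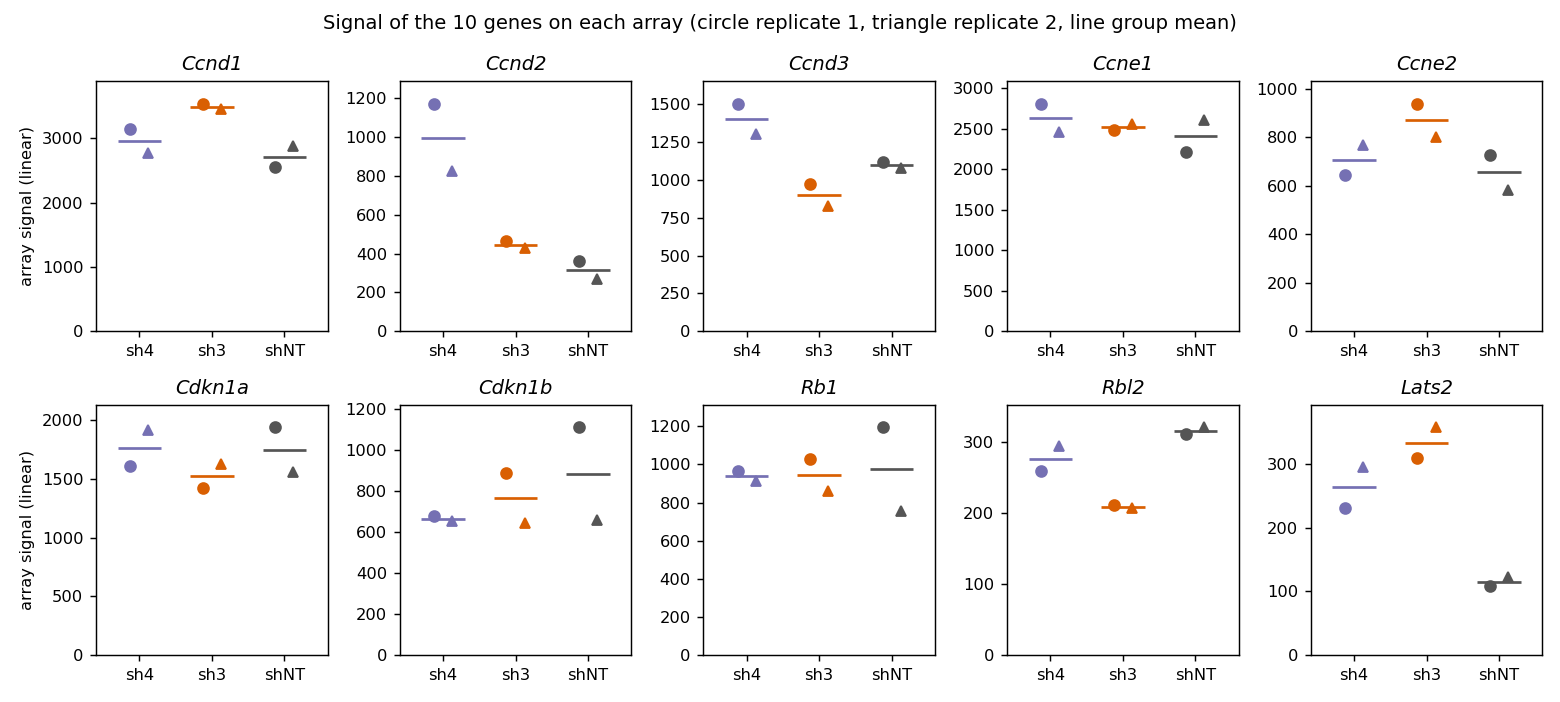
Array signal (linear axis starting at 0) of the brightest probe set of each of the 10 genes in sh4, sh3 and shNT, with replicate 1 as a circle, replicate 2 as a triangle and the group mean as a line. Ccnd2 is highest in sh4 at 1172 and 824, and Lats2 is higher on all 4 knockdown arrays than on either control array.

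Ccnd2 encodes cyclin D2, a D-type cyclin induced by growth signals. Probe set 1434745_at gave signals of 1172 and 824 in sh4, 463 and 427 in sh3, and 362 and 270.2 in shNT. The means were 998 ± 246 in sh4, 445 ± 25.7 in sh3 and 316 ± 65.1 in shNT (SD, n = 2 each). No array of a group overlapped another group, with sh4 highest and shNT lowest. With sh4 the difference was 1.60 ± 0.22 on the log2 scale (SE; 3.04-fold; limma adjusted p = 0.0250, and 0.000370 with the block). With sh3 it was 0.48 ± 0.22 (1.40-fold), with a 95% interval of -0.01 to 0.98, and the test was not passed (limma adjusted p = 0.524, and 0.121 with the block).

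The difference between the hairpins for Ccnd2 was 1.12 ± 0.22 in favour of sh4 (2.17-fold; limma adjusted p = 0.402), and it passed the test with the block (adjusted p = 0.0168). The mean of both hairpins was 1.04 ± 0.19 above shNT (2.06-fold; limma adjusted p = 0.0510, and 0.00119 with the block). Ccnd2 thus lay at the threshold in the mean and past it in sh4. By size of difference it ranked 45 of 12684 genes in sh4. Its call in sh4 was lost without sh4 replicate 1, the array with the highest value (1.35, limma adjusted p = 0.225), and without shNT replicate 2, the lowest (1.40, limma adjusted p = 0.100).

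Ccnd2 was read by 7 probe sets, which share a transcript and are no replicates. In sh4 all 7 were above both control arrays, and 6 were above both sh3 arrays. Of all genes tested, 38.8% did not overlap between sh4 and shNT in either direction, and 38.5% did not between the hairpins. For the 6 above the filter, the log2 difference in sh4 was 1.19 to 2.10 (2.29-fold to 4.30-fold), and in sh3 it was 0.06 to 0.68. Probe set 1416122_at, for example, read 1077 and 703 in sh4, 290.2 and 350.5 in sh3, and 254 and 201 in shNT. The largest difference in sh4 was that of 1455956_x_at, which may cross-hybridize, with 859 and 456 in sh4, 189 and 246 in sh3, and 153 and 117 in shNT. Among the Ccnd2 probe sets not of such a type, the largest was 1.87, that of 1416122_at. The dimmest, 1416124_at, read 18.4 and 28.1 in sh4, 34.0 and 32.0 in sh3, and 11 and 0.965 in shNT, below the filter on average. All of its values are near background and its differences carry little weight.

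In the limma fit over every probe set with no filter, 0 of the 30 member probe sets passed in the mean of both hairpins, against 0.0422% of all. The smallest limma adjusted p was 0.114. In sh4 0 passed, against 0.0155%, and the smallest limma adjusted p was 0.0616. With the block 5 of 30 passed in the mean (1.03% of all probe sets) and 6 in sh4 (0.924%), and 5 of the 7 Ccnd2 probe sets were among those in sh4. Of the 30, 5 had a mean below the filter signal. Of all 30, 22 were higher in sh4 and 18 were higher in sh3 than in shNT.

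**Figure D2:**
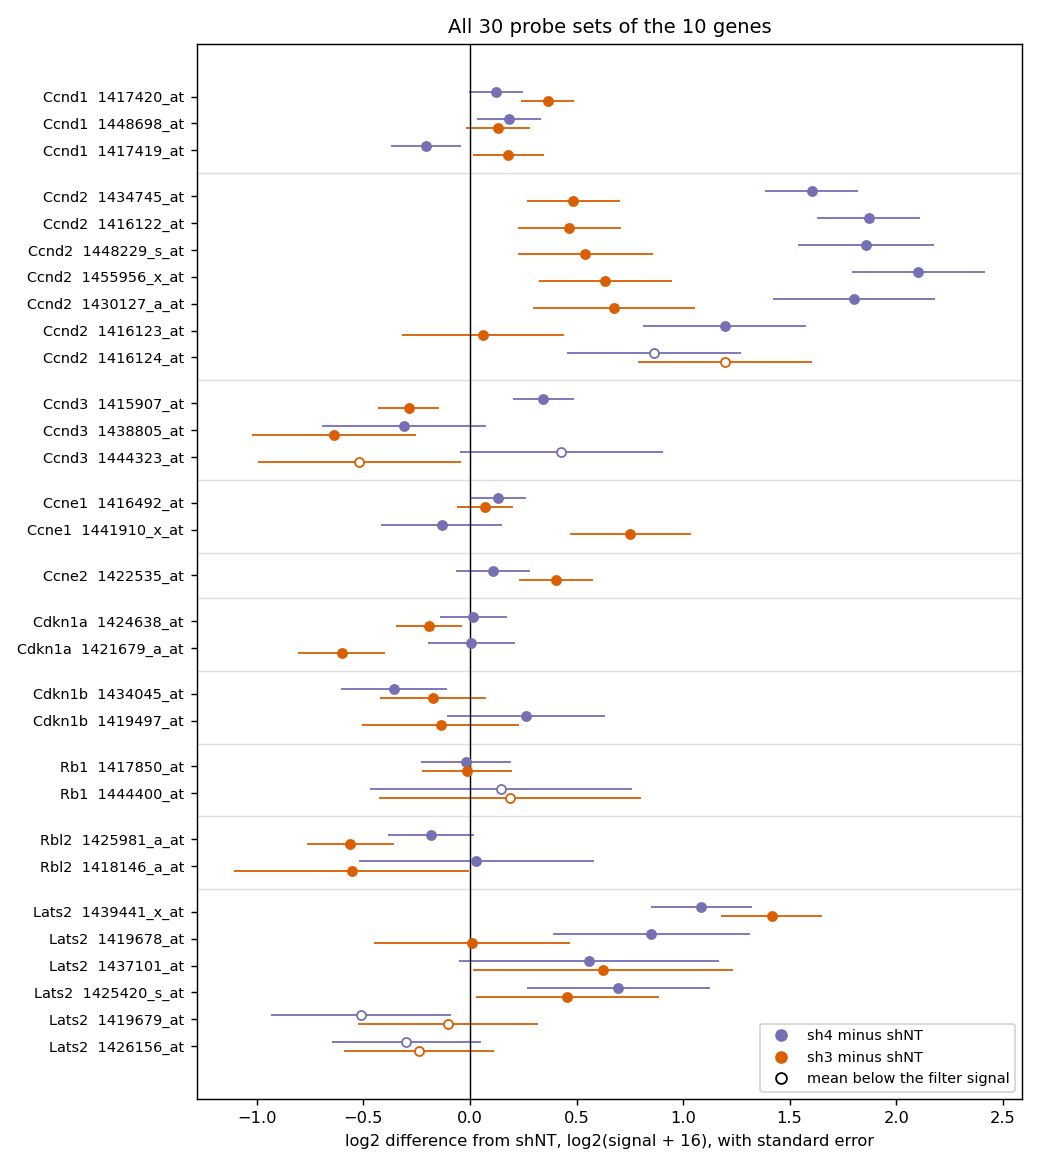
Log2 difference from shNT (log2(signal + 16), with limma standard error) of each of the 30 probe sets, for sh4 and sh3, with open symbols for probe sets whose mean is below the filter signal. The 6 filled Ccnd2 points of sh4 lie between 1.19 and 2.10.

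Ccnd3, which encodes cyclin D3, differed from shNT in opposite directions with the 2 hairpins. Its signals were 1503 and 1305 in sh4, 971 and 830.0 in sh3, and 1119 and 1080.3 in shNT. Both sh4 arrays were above both controls and both sh3 arrays below. The log2 difference was 0.34 ± 0.15 in sh4 (limma adjusted p = 0.388) and -0.29 ± 0.15 in sh3 (limma adjusted p = 0.569), and neither passed. Between the hairpins it was 0.63 ± 0.15 (95% interval 0.30 to 0.96; limma adjusted p = 0.484, and 0.0508 with the block). A dimmer probe set, 1438805_at, was lower than shNT on average in both groups, at -0.31 in sh4 and -0.64 in sh3, and 1444323_at, below the filter, was 0.43 above shNT in sh4 and -0.52 in sh3. The Ccnd3 probe sets thus disagree in sh4.

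Ccnd1 encodes cyclin D1, the best-studied D-type cyclin. Its signals were 3143 and 2770.4 in sh4, 3537 and 3450.3 in sh3, and 2551 and 2881 in shNT. The sh3 arrays were above both controls and the sh4 arrays overlapped them. The log2 difference was 0.12 in sh4 (limma adjusted p = 0.769) and 0.36 ± 0.12 in sh3 (limma adjusted p = 0.362, and 0.0922 with the block), and the test was passed in neither. Its other probe sets overlapped between the knockdown arrays and the controls, with differences in the mean of 0.16 and -0.01. Among the D cyclins, Ccnd2 alone passed a test, and differences between genes in their response were not tested.

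Ccne1 and Ccne2 encode the E-type cyclins that activate Cdk2 at the entry to S phase. Ccne1 had signals of 2807 and 2457 in sh4, 2483 and 2554 in sh3, and 2207 and 2602 in shNT. The 3 groups overlapped, and the log2 difference of the mean was 0.10 ± 0.11 (95% interval -0.16 to 0.36; limma adjusted p = 0.796). Ccne1 probe set 1441910_x_at, which may cross-hybridize, read 1381 and 1342 in sh4, 2347 and 2721 in sh3, and 1027 and 2170.4 in shNT. The 2 control arrays lay further apart than the arrays of either hairpin.

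Ccne2 had signals of 645 and 767 in sh4, 939 and 803 in sh3, and 727 and 584 in shNT. The sh3 arrays were above both controls, by 0.41 on the log2 scale (limma adjusted p = 0.508), and the sh4 arrays overlapped them. The mean of both hairpins differed by 0.26 ± 0.15 (95% interval -0.09 to 0.60; limma adjusted p = 0.559). For both E cyclins the intervals exclude a doubling in the mean of both hairpins, a log2 difference of 1.

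Cdkn1a encodes p21, an inhibitor of cyclin-dependent kinases induced by p53 and a known target of the seed shown above. Its signals were 1614 and 1919 in sh4, 1426 and 1623 in sh3, and 1938 and 1561 in shNT. All groups overlapped shNT. The log2 difference of the mean was -0.09 ± 0.13 (95% interval -0.39 to 0.22; limma adjusted p = 0.855). A dimmer Cdkn1a probe set, 1421679_a_at, read 399 and 417 in sh4, 257 and 267 in sh3, and 348 and 473 in shNT. There both sh3 arrays were below both controls, by -0.60 on the log2 scale, without passing (limma adjusted p = 0.605).

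Cdkn1b encodes p27, which inhibits cyclin E-Cdk2 in resting cells. Its signals were 676 and 654 in sh4, 889 and 641 in sh3, and 1109.8 and 657 in shNT. Control replicate 1 stood above all other arrays, and the groups overlapped. The log2 difference of the mean was -0.26 ± 0.22 (95% interval -0.75 to 0.22; limma adjusted p = 0.693). It was 0.11 without shNT replicate 1, so that its sign rested on that array. A dimmer Cdkn1b probe set, 1419497_at, read 71.2 and 87.5 in sh4, 60.1 and 52.2 in sh3, and 57.6 and 69.3 in shNT. There both sh4 arrays were above both controls, by 0.26 on the log2 scale, without passing (limma adjusted p = 0.898). At 1434045_at, the brightest, the difference in sh4 was -0.35.

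Rb1 encodes the retinoblastoma protein, the founding pocket protein. Its signals were 965 and 911 in sh4, 1028 and 862 in sh3, and 1194 and 756 in shNT. The control arrays spanned all 4 knockdown values, and the log2 difference of the mean was -0.02 ± 0.18 (95% interval -0.43 to 0.40; limma adjusted p = 0.981).

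Rbl2 encodes p130, the pocket protein typical of resting cells, and is the second known target of the seed. Its signals were 259 and 294 in sh4, 211 and 207 in sh3, and 311 and 319.9 in shNT. All 4 knockdown arrays were below both controls. The mean differed by -0.37 ± 0.17 on the log2 scale (95% interval -0.77 to 0.02; limma adjusted p = 0.433, and 0.214 with the block), which did not pass. The difference was -0.18 in sh4 (limma adjusted p = 0.793) and -0.56 in sh3 (limma adjusted p = 0.390). The dimmer probe set 1418146_a_at read 47.3 and 70.0 in sh4, 15.7 and 60.5 in sh3, and 35.4 and 85.8 in shNT. Its groups overlapped.

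Lats2, the third known target of the seed, was read most brightly by probe set 1439441_x_at, with signals of 231 and 296 in sh4, 310.3 and 358 in sh3, and 108 and 122 in shNT. The means were 264 ± 45.8 in sh4, 334 ± 33.6 in sh3 and 115 ± 9.62 in shNT (SD, n = 2 each). All 4 knockdown arrays were above both controls. Lats2 rose in the mean of both hairpins by 1.25 ± 0.20 on the log2 scale (95% interval 0.80 to 1.70; 2.38-fold; limma adjusted p = 0.0361, and 0.00179 with the block). The difference was 1.08 ± 0.23 in sh4 (2.12-fold; limma adjusted p = 0.103, and 0.0104 with the block) and 1.42 ± 0.23 in sh3 (2.67-fold; limma adjusted p = 0.0754, and 0.0030 with the block). Each hairpin alone passed the test with the block only. Between the hairpins it was -0.33 (limma adjusted p = 0.868).

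The Lats2 call rested on that 1 probe set, whose type can cross-hybridize with other transcripts. With all such probe sets left out, Lats2 was read by 1419678_at, with signals of 62.7 and 90.0 in sh4, 42.3 and 28.5 in sh3, and 21.1 and 53 in shNT. There the sh4 arrays were above both controls and the sh3 arrays were among them. The difference of the mean was then 0.43 (limma adjusted p = 0.706). Of 6 Lats2 probe sets, 4 were above the filter, and these 4 were higher than shNT on the log2 scale with each hairpin, 1419678_at by 0.01 in sh3. The filter takes the mean of all arrays and so favours probe sets that are high on the knockdown arrays. Their shared direction is therefore no independent support for the call. The control signals of 1437101_at, 1 of the 4, were 8.78 and 69.0. Probe set 1425420_s_at, which may also cross-hybridize, read 59.9 and 63.1 in sh4, 33.9 and 70.2 in sh3, and 30.8 and 32.9 in shNT. All knockdown arrays were above both controls, without passing in the mean of both hairpins (limma adjusted p = 0.727). Both controls were below the filter signal, and the probe set passed the filter through the knockdown arrays, so it adds little weight. The 2 Lats2 probe sets below the filter were lower than shNT. Leaving out any 1 of the 6 arrays kept the difference at 1.17 to 1.33, but the limma adjusted p was then 0.0724 to 0.128.

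**Figure D3:**
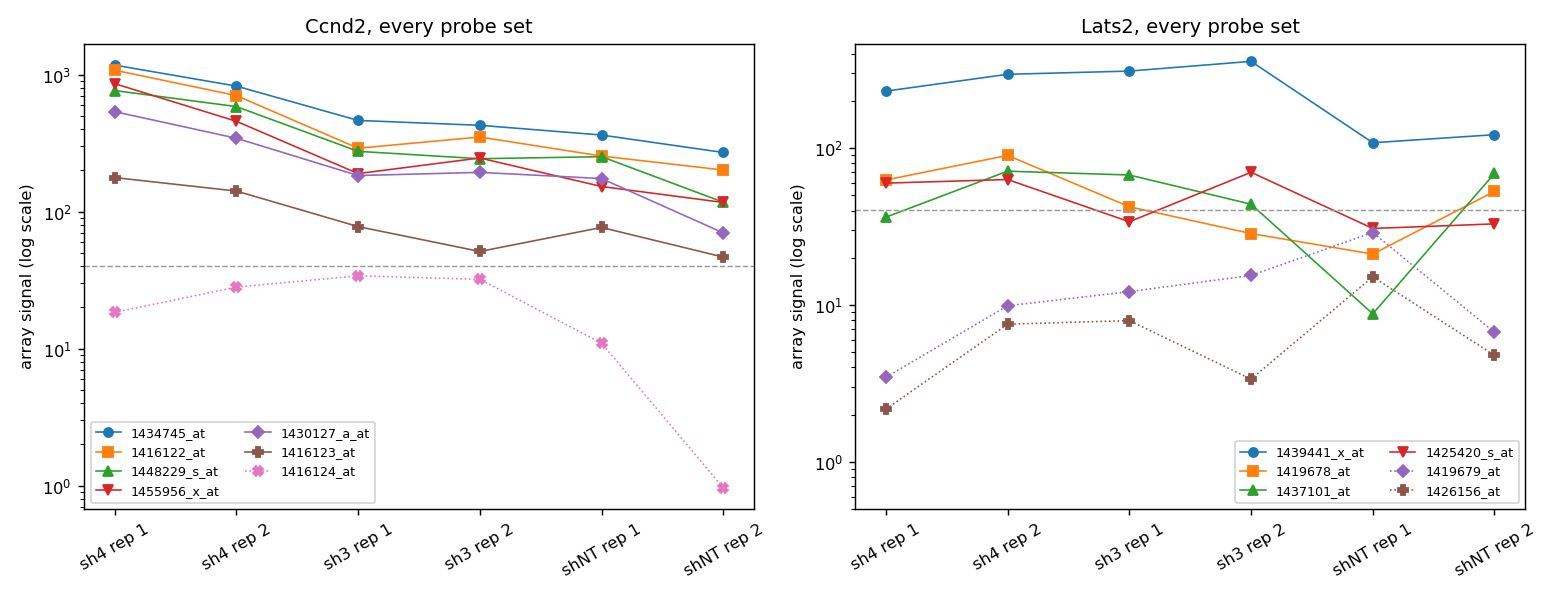
Array signal (log axis) of every probe set of Ccnd2 and Lats2 on the 6 arrays, with the filter signal of 40.12 as a dashed line and dotted lines for probe sets whose mean is below it. The 6 Ccnd2 probe sets above the line are highest in sh4, while for Lats2 the brightest probe set stands apart from dim ones.

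Of the 3 known targets of the seed, Lats2 alone passed a test, by the probe set described above and not without cross-hybridizing probe sets (0.43, limma adjusted p = 0.706). Differences between the 3 genes were not tested. Of 14 other targets of these microRNAs listed for comparison, 13 were tested. In the mean of both hairpins 0 passed in either direction by limma (4 at an unadjusted p under 0.05, against 12.3% of all genes), 8 were higher, and the median log2 difference was 0.04, against 0.01 over all genes. With the block 1 passed upward, Tgfbr2, and 2 downward, Lefty1 and Lefty2, against 5.6% of all genes. Tgfbr2, a TGF-beta receptor, read 266 and 153 in sh4, 139 and 224 in sh3, and 76.5 and 72.4 in shNT (log2 difference 1.18; limma adjusted p = 0.144, and 0.0284 with the block). Lefty2, a Nodal antagonist, read 1370.3 and 1089 in sh4, 1610.3 and 1047 in sh3, and 3254 and 2165 in shNT (-1.07; limma adjusted p = 0.0799, and 0.000218 with the block). Lefty1, also a Nodal antagonist, differed by -0.70 (limma adjusted p = 0.2145, and 0.000586 with the block). Ei24, a p53-induced gene, differed by -0.26 (limma adjusted p = 0.294).

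Around the 10 genes, 29 other genes of the G1 machinery (kinases, inhibitors, pocket proteins, E2F factors and the ligase that degrades p27) were tested. Of these 1 rose and 0 fell in the mean of both hairpins, against 0.725% of all genes in either direction. With the block 2 rose, against 5.6% of all genes. The gene that rose was Skp2, the ubiquitin ligase subunit that marks p27 for degradation. Its signals were 2318 and 2460.1 in sh4, 2776 and 2698 in sh3, and 1709.6 and 1519 in shNT, so that all knockdown arrays were above both controls. The difference was 0.66 ± 0.10 (limma adjusted p = 0.0361, and 0.00185 with the block), and the call was lost when any 1 array was left out (0.58 to 0.74).

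Cdk6, a kinase partner of the D cyclins, read 865 and 858 in sh4, 781 and 967 in sh3, and 508 and 676 in shNT. It differed by 0.55 ± 0.16 (limma adjusted p = 0.207, and 0.0279 with the block). E2f1, an activating E2F factor, differed by -0.50 (limma adjusted p = 0.314; -0.016 with probe sets averaged per gene), and Cul1, the scaffold of the ligase that holds Skp2, by 0.21 (limma adjusted p = 0.440). The median over the 29 was 0.04.

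Downstream of the G1 machinery, 0 of 20 E2F targets of S phase passed by limma in either direction, with or without the block. An unadjusted limma p under 0.05 was reached by 2 of them, against 12.3% of all genes. Only 3 of the 20 were higher on average, and their median was -0.07, against 0.01 over all genes. The genes with the smallest p were Mcm6, a helicase subunit, at -0.23 (limma adjusted p = 0.408), Prim1, a primase subunit, at -0.14 (limma adjusted p = 0.578), Rrm2, a ribonucleotide reductase subunit, at 0.26 (limma adjusted p = 0.362) and Tyms, thymidylate synthase, at -0.53 (limma adjusted p = 0.4015). Of 15 genes of G2 and M phase 0 passed (1 at an unadjusted limma p under 0.05, against 12.3% of all genes). With the block 1 passed downward, against 5.6% of all genes, the mitotic kinesin Kif11 (-0.39, limma adjusted p = 0.212, and 0.0433 with the block). The mitotic genes Plk1, Cdc20 and Top2a differed by 0.13, 0.18 and -0.18. Of 15 p53 targets 0 passed by limma with or without the block, and 2 had an unadjusted p under 0.05, against 12.3% of genes. Among them Btg2, Gadd45a, Aen and Trp53inp1 differed by 0.51, 0.30, 0.16 and -0.18. Leaving out 1 array moved Btg2 between 0.13 and 0.89 and Aen between 0.073 and 0.24.

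Lats2 acts in the Hippo pathway, of which 18 other genes and targets were tested. In the mean of both hairpins 0 passed by limma (5 at an unadjusted p under 0.05, against 12.3% of all genes), 13 of 18 were higher, and the median was 0.23, against 0.01 over all genes. With the block 4 passed, against 5.6% of all genes, all upward, Tead2, Ccn1, Ccn2 and Amotl2. Ccn1, a matricellular protein induced by Yap, read 1238 and 1384 in sh4, 1846 and 2244 in sh3, and 875 and 1149 in shNT (log2 difference 0.69; limma adjusted p = 0.0994, and 0.00232 with the block). Ccn2, a second such protein, differed by 0.39 (limma adjusted p = 0.3255, and 0.0109 with the block). Tead2, a DNA-binding partner of Yap, differed by 0.60 (limma adjusted p = 0.164, and 0.00948 with the block). Wwtr1, which encodes Taz, differed by -0.35 (limma adjusted p = 0.2855).

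**Figure D4:**
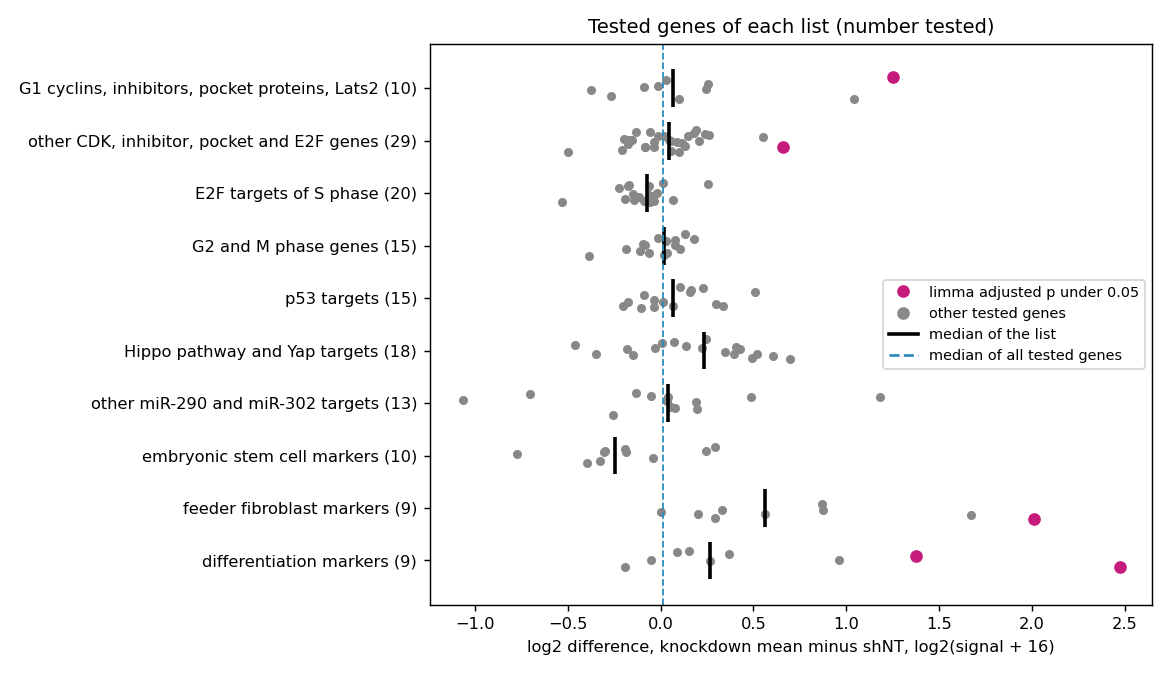
Log2 difference of the mean of both hairpins from shNT for each tested gene of the 10 genes and of 9 comparison lists, with genes past a limma adjusted p of 0.05 in magenta, list medians as black bars and the median of all tested genes (0.01) as a dashed line. Among the 10 genes Lats2 at 1.25 is in magenta and Ccnd2 at 1.04 is the grey point nearest to it. In the marker lists Col3a1, Cdx2 and Dcn were below the filter signal on both control arrays, and their plotted sizes carry little weight.

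Some markers of other cells were higher on the knockdown arrays than on the controls, and others were not. The summed signal of 12 feeder fibroblast markers was 4072 and 4113 in sh4, 3336 and 3214 in sh3, and 2825 and 2655 in shNT. Of the 9 tested 1 passed in the mean of both hairpins, against 0.725% of all genes, the collagen Col3a1 (limma adjusted p = 0.0336). It read 171 and 254 in sh4, 109 and 189.6 in sh3, and 25.6 and 37.6 in shNT. Its call was lost in 3 of 10 other settings and in 5 of 6 fits without 1 array (limma adjusted p up to 0.122). Dcn, which encodes the proteoglycan decorin, read 106 and 113 in sh4, 41.4 and 47.1 in sh3, and 10.9 and 11.7 in shNT. Both genes were below the filter signal of 40.12 on the control arrays and passed the filter through the knockdown arrays, so no size is given for their difference. The p-values of genes that entered the test in that way carry the same limit. Of the 12 markers Lum, Postn and Fap were below the filter on average. Lum was higher on all 4 knockdown arrays (27.4 to 33.5) than on the controls (20.8 and 4.36), all below the filter signal. Postn and Fap overlapped between the knockdown arrays and the controls. The summed signal of 11 measured differentiation markers was 2425 and 1817 in sh4, 1828 and 1658 in sh3, and 1319 and 1012 in shNT. Of these 9 were tested, and 2 passed, Nes and Cdx2, against 0.725% of all genes. Nes, a neural progenitor filament, rose by 1.37 (limma adjusted p = 0.0246), with the call kept in 2 of 6 fits without 1 array (limma adjusted p up to 0.117). Cdx2, a trophectoderm factor, read 104 and 119.8 in sh4, 90.6 and 209 in sh3, and 18.8 and 2.43 in shNT (limma adjusted p = 0.0361). It too was below the filter signal on both control arrays, so that no size is given, and the call was kept in 2 of 6 fits without 1 array.

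On average both sums, like Ccnd2, were highest in sh4 and lowest in shNT, though the sh4 and sh3 arrays overlapped in the differentiation sum. Bright genes weigh most in such sums. The feeder marker Fstl1 had mean signals of 2467 in sh4, 1969 in sh3 and 1798 in shNT, and Nes had 688, 660 and 251. Of the 9 tested differentiation markers, 8 were higher than shNT in sh4 and 5 in sh3. For the 9 tested feeder markers it was 9 and 8. The median difference over all genes tested was 0.02 in sh4 and 0.01 in sh3. These counts include Cdx2, Col3a1 and Dcn, which passed the filter through the knockdown arrays, and leave out markers below it. The filter thus fixed their direction in part, and no conclusion is drawn from the counts. Sox17, an endoderm factor, read 261 and 159.7 in sh4, 65.6 and 62.0 in sh3, and 59.2 and 45.9 in shNT, with a difference of 1.69 in sh4 (limma adjusted p = 0.0743). That probe set may cross-hybridize, and without such probe sets the mean of both hairpins was -0.18, against 0.96 with it. The summed signal of 10 embryonic stem cell markers was 98732 and 104124 in sh4, 92291 and 98019 in sh3, and 106603 and 126898 in shNT. Of the 10, 0 passed by limma (2 at an unadjusted p under 0.05, against 12.3% of all genes). With the block 4 passed downward, against 5.6% of all genes in either direction, Nanog at -0.40, Sox2 at -0.33, Esrrb at -0.77 and Dppa5a at -0.30. Leaving out 1 array moved Nanog between -0.70 and -0.090 and Esrrb between -1.11 and -0.44. The part of other cell types in the Ccnd2 and Lats2 values was not tested.

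The genes whose log2 signal ran most like that of Lats2 over the 6 arrays were Nrgn, a calmodulin-binding protein of neurons (Pearson's r = 0.997), Cd81, a tetraspanin (r = 0.992), and B9d1, a protein of the cilium's transition zone (r = 0.991). These values describe the 6 arrays, which share their groups and their scaling, and with so few points many genes reach high values. Since the genes were chosen for following Lats2 over these arrays, the log2 differences in the mean of both hairpins, 0.66 for Cd81 and 1.17 for B9d1, are given with no test. Nrgn was below the filter signal of 40.12 on both control arrays (22.2 and 26.2) and passed it through the knockdown arrays, so no size is given.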

How the data were processed

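The authors deposited linear signal intensity per probe set from Affymetrix mouse genome arrays, 1 per sample (6 ug total RNA). The submitters' processing notes name MAS5 (version: not given in the sources used here). They were used as they stand. Probe sets were named from the platform annotation: of 45101, 34945 had 1 symbol, 932 several, 9160 none and 64 were controls. Signals became log2(signal + 16), which understates the change of dim genes. The brightest probe set over all arrays represented each gene, and 12684 genes at or above the 40th percentile (signal 40.12) were tested. The model, in limma 3.58.1 (R 4.3.3), had a mean for each of 3 groups, an intensity trend and residual df of 3, and its 2-sided p-values had Benjamini-Hochberg adjustment over all genes at 0.05. Probe sets were fitted separately over all 45037, unfiltered. Every value given for the mean of both hairpins weights them equally. The number of arrays limits precision.

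Across genes, arrays that carry one replicate number strayed together from their groups' means, with correlations of 0.302, 0.223 and 0.2996 in the 3 pairs of groups, so the replicate numbers from the titles were taken to pair samples. That pairing is inferred from these data and is stated by no label. Tests on simulated data for the mean of both hairpins recovered 18.4% of changes of 1.5-fold, 53.6% of 2-fold and 81.2% of 3-fold. Of the calls there, over 12684 genes, 4.32% were false. Whether these rates hold for the arrays themselves, where replicates strayed together, was not tested. Named were all 10 genes, up to 4 genes of each comparison list with the smallest p in the mean of both hairpins, the 3 genes most like the member with the smallest p, and Jmjd1c. Further genes named for passing with the block or as marker examples (Amotl2, Dppa5a, Pou5f1, Lum, Postn, Fap) fall outside that rule and were chosen after their values were seen. The members and lists were chosen with earlier results of these data known. Some listed genes (among them Ccnb1, Bax, Trp53, Stk3, Ash1l and T) were not analysed here.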

Additional observations from a re-analysis of the deposited data

Results flagged for a closer look

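Ccnd3 differed between the hairpins in direction. Both sh4 arrays were above both control arrays and both sh3 arrays were below them, and sh4 minus sh3 was 0.63 on the log2 scale. The test of that difference was not passed (limma adjusted p = 0.484, and 0.0508 with the block), and 38.5% of all genes showed no overlap between the hairpins. Without 1 array the difference was 0.52 to 0.74.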

How the results depend on the processing

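The 10 genes and the counts of called genes were recomputed under 11 other settings and without each of 6 arrays, probe sets and their count under 7 settings, and dim genes where the setting kept them (8 to 10 for Dcn, Cdx2, Tyms, Col3a1, Sox17 and Tgfbr2). Genes named outside the rule and those most like Lats2 were not recomputed. Called genes in the mean of both hairpins, 92 with the settings used here, were 36 with no filter on dim probe sets, 0 with no intensity trend, 710 with the replicate block, 34 with probe sets averaged per gene, 59 without probe sets that may cross-hybridize, and 4 to 48 without 1 array. Called members there, 1 in the fit used, were 2 with the block, 0 without 1 array, and 0 with no filter, median centring, no trend, the mean of probe sets or no cross-hybridizing probe sets. Of the 30 member probe sets 5 passed with the block and 0 without it, or with any array left out. In sh3, 9 genes passed, 435 with the block, 0 with a pseudocount of 1, no filter, a 60th percentile filter, no trend, the mean of probe sets or only the groups compared, and 0 to 1 without 1 array. Members passing in sh3 were 0, and 1 with the block. In sh4, 46 genes passed, 21 with no filter, 6 with no trend, 622 with the block, 27 with the mean of probe sets, and 3 to 40 without 1 array. Members passing in sh4 were 1, 2 with the block, 0 with no trend or the mean of probe sets, and 0 to 1 without 1 array. Between the hairpins 0 genes and 0 members passed, and 53 and 1 with the block. Median centring lowered the median of all genes by 0.075 in the mean of both hairpins and by 0.109 in sh4, where it made the calls 33 higher and 22 lower, against 36 and 10. Ccnd2 in sh4 was called in 9 of 11 other settings, not with no trend (limma adjusted p = 0.142) or the mean of probe sets (limma adjusted p = 0.0595), and stayed between 1.35 and 1.85 without 1 array. Its mean of both hairpins was called only with the block. Lats2 was called in 6 of 11, not with no filter (limma adjusted p = 0.0679), median centring (limma adjusted p = 0.0508), no trend (limma adjusted p = 0.119), the mean of probe sets (0.38) or without probe sets that may cross-hybridize (0.43). The sign turned for values near 0. In the mean of both hairpins, Ccnd3 and its 1415907_at were -0.046 with median centring and Ccnd3 was -0.16 with the mean of probe sets, Rb1 was 0.076 there, 1419497_at was -0.0093 with quantile normalization and -0.012 with median centring, 1444323_at was 0.0052 with a pseudocount of 64, and Aen was -0.066 and Mcm6 0.081 with the mean of probe sets. Sox17 was -0.18 without cross-hybridizing probe sets. With the mean of probe sets Rb1 was 0.088 in sh3 and 0.064 in sh4, and Ccne1 was -0.00052 in sh4. With median centring Ccne2 was -0.0014 and Cdkn1a -0.092 in sh4. For sh4 minus sh3, Rb1 was 0.015 with quantile normalization, Ccne1 -0.0079 with median centring, and with the mean of probe sets Ccne1 was -0.41, Cdkn1b 0.11 and Lats2 0.037, with Lats2 at 0.84 without cross-hybridizing probe sets. The sign also turned when 1 array was left out, with ranges in the mean of both hairpins of -0.027 to 0.084 for Ccnd3 and 1415907_at, -0.017 to 0.22 for Ccne1 and 1416492_at, -0.24 to 0.067 for Cdkn1a and 1424638_at, -0.64 to 0.11 for Cdkn1b and 1434045_at, -0.34 to 0.31 for Rb1 and 1417850_at, -0.041 to 0.57 for Pax6, -0.19 to 0.17 for 1417419_at, -0.76 to 0.23 for 1418146_a_at, -0.044 to 0.17 for 1419497_at, -0.016 to 0.88 for 1419678_at, -0.80 to 0.19 for 1419679_at, -0.56 to 0.023 for 1426156_at, -0.30 to 1.48 for 1437101_at, -0.22 to 0.84 for 1441910_x_at, -0.31 to 0.22 for 1444323_at and -0.70 to 1.04 for 1444400_at. The ranges in sh3 were -0.047 to 0.19 for Ccne1, -0.55 to 0.20 for Cdkn1b and -0.34 to 0.31 for Rb1. In sh4 they were -0.047 to 0.26 for Ccne2, -0.14 to 0.17 for Cdkn1a, -0.73 to 0.016 for Cdkn1b and -0.34 to 0.31 for Rb1, and for sh4 minus sh3 -0.035 to 0.16 for Ccne1, -0.41 to 0.05 for Cdkn1b and -0.13 to 0.12 for Rb1. The cause of these changes was not tested.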
